A study of Homo sapiens with 4 samples.

Results

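In OE-19 cells, a line established from adenocarcinoma of the esophagogastric junction (AEG), 565 protein-coding genes carried m6A peaks at many places along their transcripts. These genes were chosen by their number of peaks: at least 5 peaks with the summit in an exon in replicate 1 and at least 3 in replicate 2. They were 6.86% of the 8238 protein-coding genes with an exonic summit in either list, and they held 3709 of the 18488 exonic peaks of replicate 1 (20.1%) and 2574 of the 12003 of replicate 2 (21.4%). The members are the peaks of these genes. The number of peaks per gene chose them, so that number is a description and is not tested.

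The study profiled m6A by immunoprecipitating RNA with an anti-m6A antibody and sequencing it (meRIP-seq), in 2 immunoprecipitated samples and 2 inputs taken without antibody. All 4 samples were OE-19 cells grown in RPMI1640 with serum, and no treatment or knockdown is named for them. Only the 2 peak lists, 1 for each immunoprecipitated sample, were analysed here. The labels do not say whether the replicates were separate cultures, and OE-19 is a single tumour line. The lists held 24607 and 19318 peaks. Read numbers are unknown, so the depth behind a peak cannot be given. The intervals below are 95% intervals that cover counting error only, since the peaks of a gene lie on the same transcript.

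N6-methyladenosine is written onto messenger RNA by a methyltransferase complex with METTL3 as its catalytic subunit, mostly at adenosines in short DRACH contexts of which GGAC is the best known. It is known to gather near stop codons and in long internal exons, and to be sparse next to exon junctions. Reader proteins such as the IGF2BP and YTH families bind the modified transcript and change its stability or translation. A peak in such an experiment marks an enriched stretch of RNA fragments and can hold more than 1 modified base.

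The windows below show what lay at the summits of the genes described most fully. They are reference sequence read from hg38 around the replicate 1 summit of peaks found in both lists, on the strand of the gene, with GGAC in capitals. Windows in coding sequence run up to 50 nt to each side of the summit within the exon, and those in untranslated sequence 14 nt. The first 4 are from TNRC18, the gene with the most summits, and cover long and short exons. All 4 hold GGAC, but of the 15 TNRC18 windows read in this way 8 held none. The TNRC18 windows are followed by the strongest peaks of 3 genes with the largest fold enrichment, by peaks in the very long exons of ZNF469 and AHNAK, and by peaks of SPEN, KMT2D and ZC3H13.
TNRC18 exon 2, chr7:5421135-5421235 (minus strand): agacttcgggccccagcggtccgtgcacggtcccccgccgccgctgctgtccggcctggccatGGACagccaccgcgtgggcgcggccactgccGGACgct
TNRC18 exon 11, chr7:5370645-5370745 (minus strand): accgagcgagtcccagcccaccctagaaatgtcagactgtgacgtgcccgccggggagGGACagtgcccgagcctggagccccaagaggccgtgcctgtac
TNRC18 exon 13, chr7:5361897-5361960 (minus strand): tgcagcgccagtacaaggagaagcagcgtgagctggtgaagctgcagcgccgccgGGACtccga
TNRC18 exon 27, chr7:5313314-5313414 (minus strand): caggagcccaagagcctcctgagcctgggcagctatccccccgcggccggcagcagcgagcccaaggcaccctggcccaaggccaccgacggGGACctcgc
MAP3K9 exon 13, chr14:70730525-70730625 (minus strand): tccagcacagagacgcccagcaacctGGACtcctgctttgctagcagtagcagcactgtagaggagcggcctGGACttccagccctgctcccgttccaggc
FBXW7 exon 2, chr4:152411401-152411501 (minus strand): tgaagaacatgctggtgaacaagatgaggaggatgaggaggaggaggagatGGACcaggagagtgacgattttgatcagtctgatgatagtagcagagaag
CHD6 exon 37, chr20:41405191-41405291 (minus strand): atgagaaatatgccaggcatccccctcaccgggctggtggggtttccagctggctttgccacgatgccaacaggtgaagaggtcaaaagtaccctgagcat
ZNF469 exon 3, chr16:88427666-88427766 (plus strand): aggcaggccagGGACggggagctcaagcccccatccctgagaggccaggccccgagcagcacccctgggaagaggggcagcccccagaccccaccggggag
AHNAK exon 5, chr11:62533748-62533848 (minus strand): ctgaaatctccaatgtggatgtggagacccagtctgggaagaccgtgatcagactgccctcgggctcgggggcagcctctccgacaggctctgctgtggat
SPEN exon 3, chr1:15876279-15876379 (plus strand): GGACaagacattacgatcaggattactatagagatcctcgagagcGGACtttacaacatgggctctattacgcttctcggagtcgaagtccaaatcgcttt
KMT2D exon 49, chr12:49026642-49026742 (minus strand): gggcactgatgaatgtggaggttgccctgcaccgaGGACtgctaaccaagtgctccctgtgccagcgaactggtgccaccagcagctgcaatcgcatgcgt
ZC3H13 exon 19, chr13:45957114-45957142 (minus strand): actgtgtgtgtcttaagaccgaagttcaa
The MAP3K9 window held 2 copies of GGAC and the FBXW7 window 1. The windows of CHD6, AHNAK and ZC3H13 held none.

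The number of peaks per gene was steep at its upper end. The median member gene had 6 summits in replicate 1 and 4 in replicate 2, and the highest had 25 and 15. In replicate 1, 56 member genes had 10 or more, against 12 in replicate 2. More summits were listed in replicate 1 for 484 of the 565 genes (85.7%), the same number in both for 61, and more in replicate 2 for 20, AHNAK and AKAP13 among them. The 96 genes just inside the rule, with 5 and 3 summits (AAR2 and AFAP1 first by name), had peaks with a median enrichment of 5.04-fold and 4.53-fold in the first and the second list. Just outside it, 293 genes with 4 summits in replicate 1 and 3 or more in replicate 2 (ABHD8 among them) had medians of 5.88 and 4.67. The 121 genes with 5 or more in replicate 1 but 2 in replicate 2 (AGO2, AMOT) had 4.17 and 4.10.

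A high count in replicate 1 went with a high count in replicate 2. Over the 8097 genes with an exonic summit in replicate 1, 16.2% had 3 or more in replicate 2. That share was 0.475% of the genes with 1 summit in replicate 1, 27.6% of those with 3, 69.5% of those with 5 and 98.2% of those with 10 or more. No replicate 2 summit at all was listed for 37.9% of the genes with 1, and for 4 of the 338 genes with 5.

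**Figure D1:**
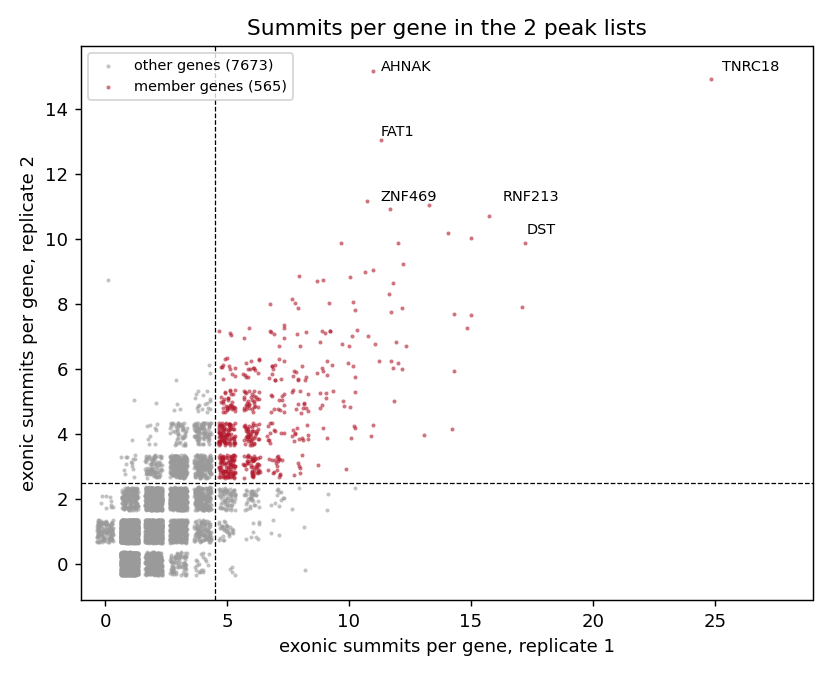
Each point is a protein-coding gene, placed by its number of exonic summits in replicate 1 (horizontal) and in replicate 2 (vertical), with random offsets of up to 0.35 so that points do not hide each other; dashed lines mark the rule of 5 and 3. The 565 member genes (red) reach 25 and 15 summits at TNRC18, and AHNAK and FAT1 stand above the others in replicate 2.

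The 12 genes with the most summits over both lists encode chromatin regulators, giant structural proteins, large enzymes and transcription factors. TNRC18, a bromo-adjacent homology domain protein that reads a repressive histone mark, had 25 summits in replicate 1 and 15 in replicate 2. They fell in 24 and 15 of its 30 exons, so nearly every TNRC18 summit had an exon of its own. Its fold enrichment ran from 1.99 to 10.4 in replicate 1 and from 1.74 to 5.10 in replicate 2. BAHCC1, the paralog of TNRC18, had 15 and 10 summits and a higher maximum of 17.3 and 8.57. KMT2D, a histone H3 lysine 4 methyltransferase, had 12 and 11 summits, and SETD1B, another enzyme of that class, had 15 and 8.

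The structural genes placed their summits differently. AHNAK, a giant scaffold protein at the membrane, had 11 summits in replicate 1 and 15 in replicate 2, of which 10 and 15 lay in its 18173 nt last exon. All 15 replicate 2 peaks of AHNAK overlapped a replicate 1 peak, but they were shallow, with fold enrichment between 1.51 and 3.20. With 11 summits in replicate 1 the overlap was not 1 to 1. The replicate 2 summits at nt 4255 and 9066 had their nearest replicate 1 summits at nt 5541 and 8246. DST, a linker of the cytoskeleton, had 17 and 10 summits, 7 and 5 of which lay in exons outside the transcript with its longest coding sequence (CDS). FAT1, an atypical cadherin, had 11 and 13, and each FAT1 peak in either list overlapped a peak of the other, again not 1 to 1.

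RNF213, TBC1D16, ZFHX3 and ZNF469 were also among the 12. RNF213, a very large E3 ubiquitin ligase, had 16 and 11 summits, its strongest in the 3′UTR with a fold enrichment of 6.84 and 4.99. TBC1D16, a GTPase-activating protein for Rab, had 14 and 10, with 6 and 5 of them in its 8765 nt last exon. ZFHX3, a homeodomain transcription factor, had 13 and 11 and reached 15.6 in replicate 2. ZNF469, a zinc finger protein, had 11 in each list, all of them in a single exon of 13409 nt. SPEN, a transcriptional corepressor, FLG, the keratinocyte protein filaggrin, and PKD1, the polycystin gene with near-identical pseudogenes, had the same total as ZNF469 and were left out of the 12 by order alone.

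**Figure D2:**
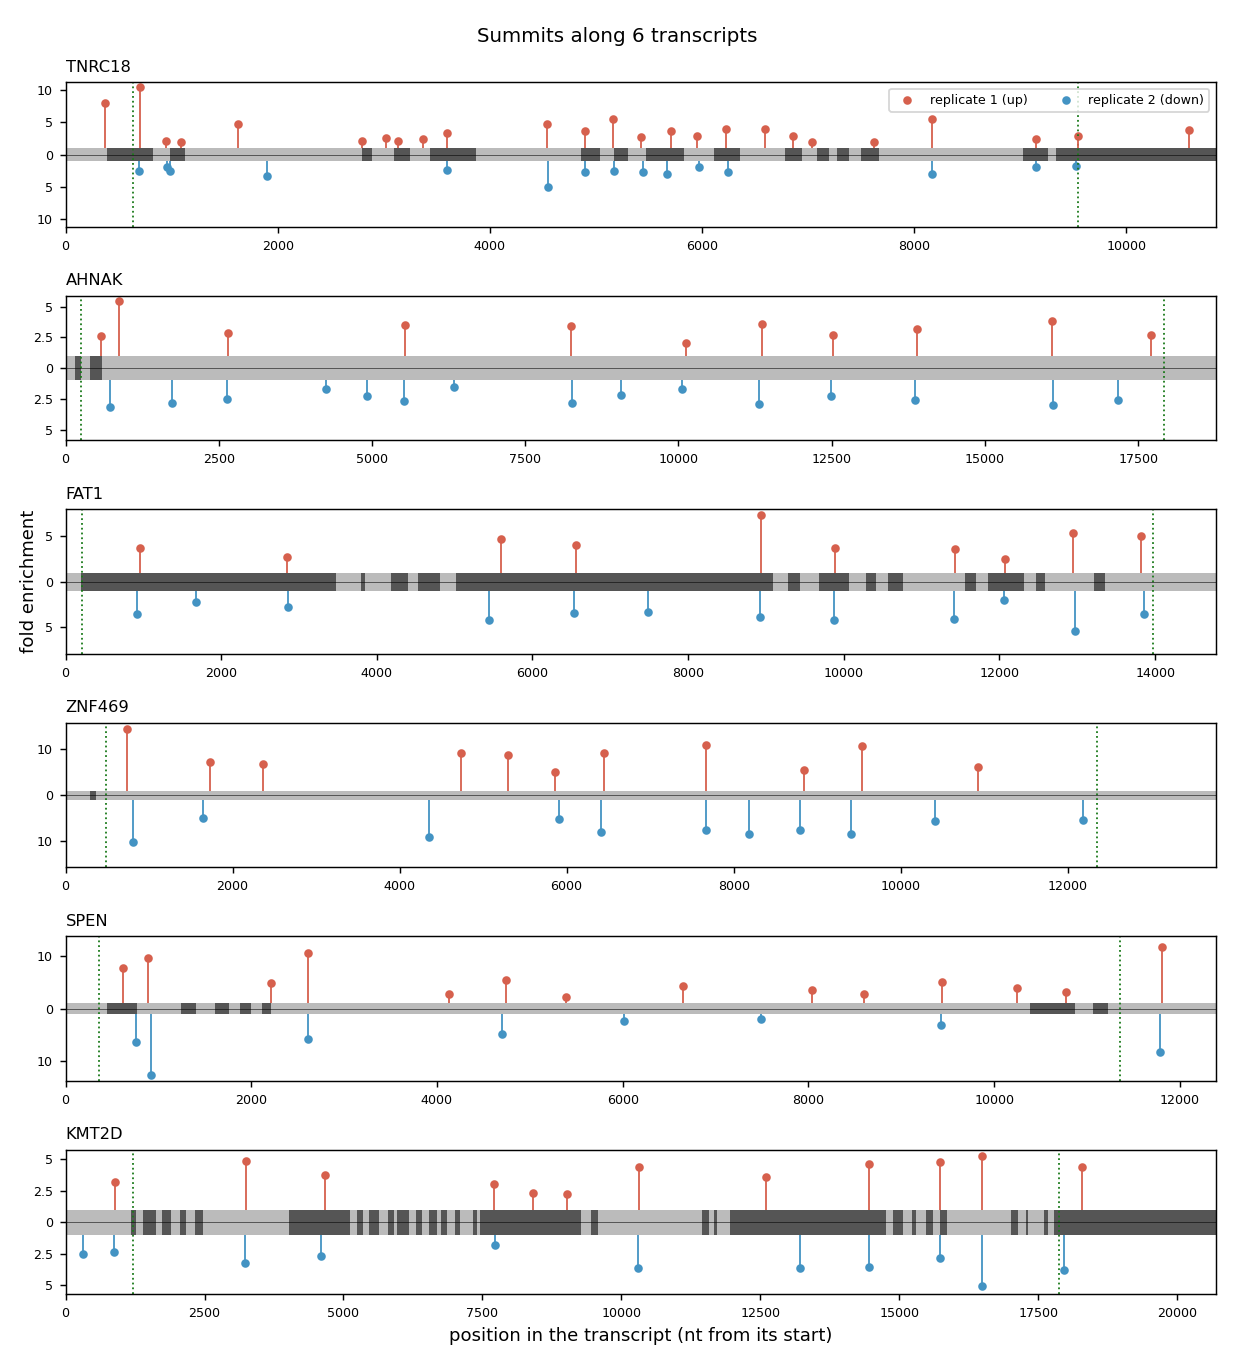
Summits along 6 transcripts, by position in nt from the transcript start (horizontal) and fold enrichment (vertical, replicate 1 upward and replicate 2 downward). Alternating grey blocks are exons and dotted green lines the start of the coding sequence and the stop codon. TNRC18 shows about a summit per exon, while AHNAK and ZNF469 carry rows of summits inside a single exon, none of them in the 3′UTR.

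The member transcripts were long. For each gene the transcript with the longest CDS in GENCODE 44 was used, and its median length was 6642 nt (interval 6088 to 7022, n = 565), against 3158 nt (3023 to 3284, n = 1898) for genes with exactly 1 exonic summit in each list. The member share rose with length, from 11 of 1518 genes under 2000 nt (0.725%) to 54 of 196 at 12000 nt or more (27.6%). The number of summits per kb was set by the rule on both sides and is a description: members had a median of 0.933 summits per kb in replicate 1 and 0.666 in replicate 2, against 0.533 and 0.416 for all genes with a summit and 0.317 for the genes with 1 summit. The median CDS was 3258 against 1359 nt and the median 3′UTR 2131 against 1206 nt.

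The longest internal exon differed more than transcript length, but other measures of exon structure did not. The longest exon of any kind had a median of 3256 against 1646 nt, and the median number of exons was 13 against 9. The median longest internal exon of members was 804 nt (719 to 885) and that of the genes with 1 summit 214 nt (209 to 220). An internal exon of 400 nt or more was present in 419 of 565 members (74.2%, interval 70.4 to 77.6) and in 308 of 1898 genes with 1 summit (16.2%, 14.6 to 18.0). Internal exons of 1000 nt or more were present in 39.5% and 3.90%. The longest exon of the transcript was internal in 22.7% of members and in 6.59% of the genes with 1 summit. It was the last exon in 74.7% and 89.1%. No member's summits chose these lengths, but a longer exon has more room for summits, and the share due to room was not tested.

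**Figure D3:**
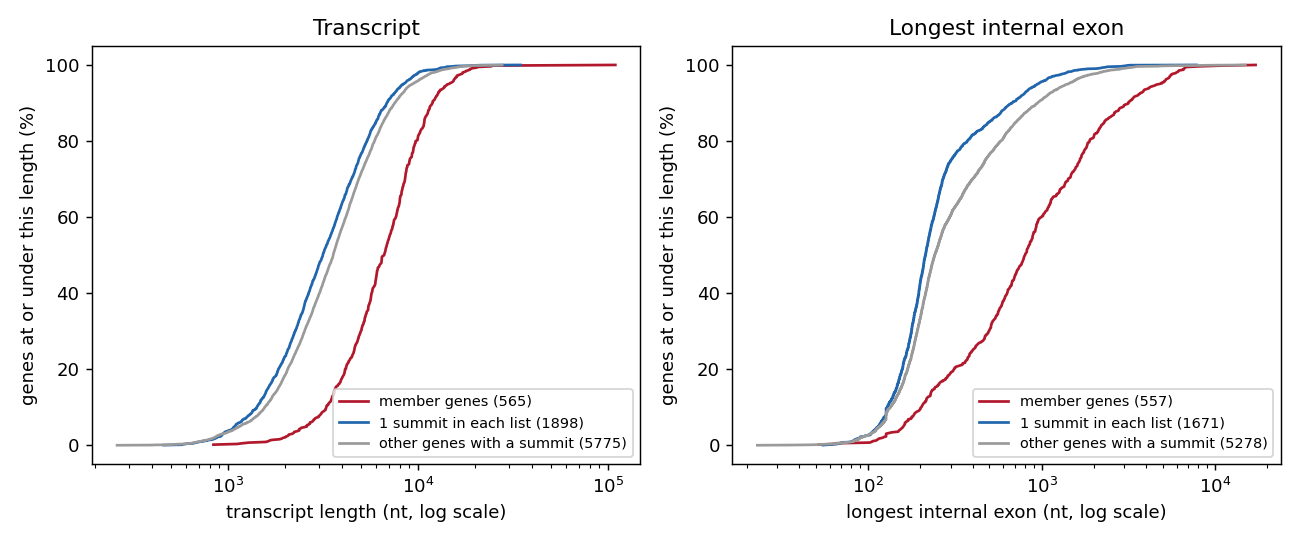
Cumulative share of genes by transcript length (left) and by the length of the longest internal exon (right), both on log axes in nt, for member genes, genes with 1 exonic summit in each list and the other genes with a summit. The members lie to the right in both panels, with medians of 6642 nt and 804 nt against 3158 nt and 214 nt for the genes with 1 summit.

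Nearly every long internal exon of a member gene had a peak. Of 502 internal exons of 400 to under 1000 nt, 448 held a summit in replicate 1 (89.2%, interval 86.2 to 91.7) and 400 in replicate 2 (79.7%, 75.9 to 83.0). Of 163 exons of 1000 to under 2000 nt, 159 and 158 held at least 1. Of 118 exons of 2000 nt or more, 112 held a summit in each list, with a mean of 2.88 and 2.58 summits in each exon that had any. In the classes under 400 nt the share was much lower: 28.1% and 12.5% of the 1283 exons of 200 to under 400 nt held a summit, and 8.78% and 2.65% of the 5990 exons under 200 nt.

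Internal exons of 400 to under 1000 nt had 1.51 summits per kb in replicate 1 and 1.33 in replicate 2, those of 2000 nt or more 0.730 and 0.655, and last exons 0.576 and 0.481. Exons under 200 nt had 0.725 per kb in replicate 1 and 0.219 in replicate 2, a wider gap between the lists than in the longer internal exons. Over all genes with a summit, internal exons of 400 to under 1000 nt held one in 78.9% and 64.4%, and those under 200 nt in 2.30% and 0.542%. The rise between the classes on each side of 400 nt was thus present over all genes with a summit. Finer classes were not computed, so the length at which the share rises is not known. The choice of members by count raises every class.

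**Figure D4:**
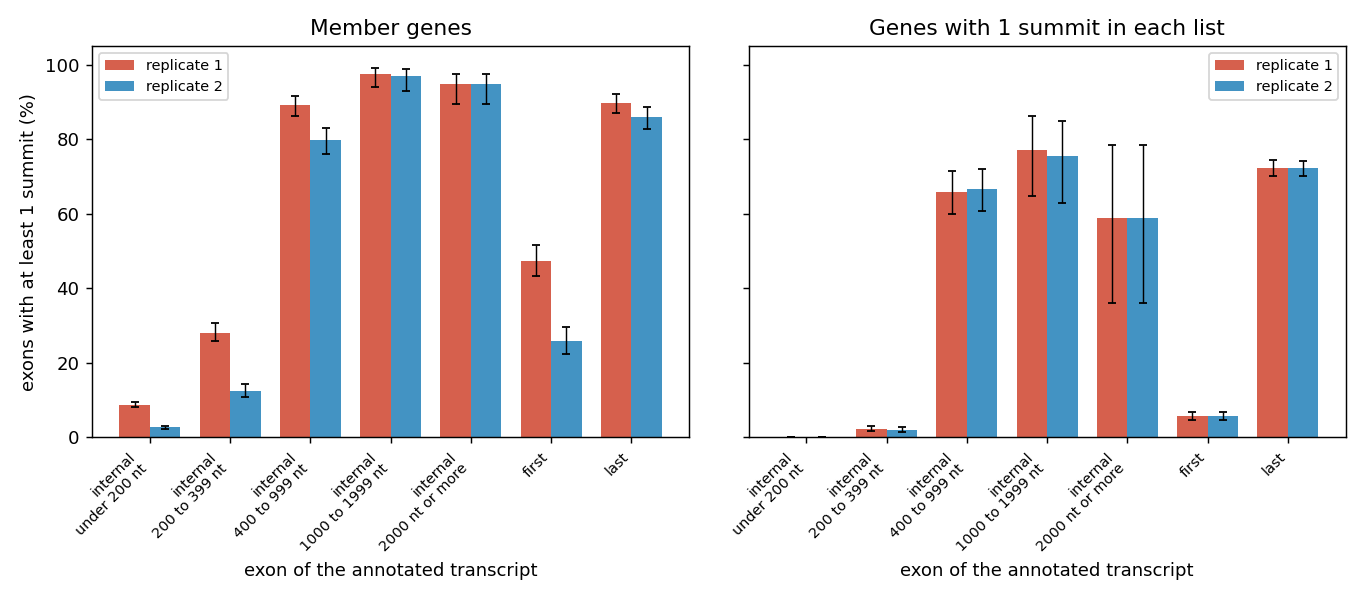
Share of exons with at least 1 summit by exon kind (bars, %, from 0), for member genes (left) and for genes with 1 summit in each list (right), in replicate 1 and replicate 2; error bars are 95% Wilson intervals. In members the share rises between the classes on each side of 400 nt, from 28.1% to 89.2% in replicate 1 and from 12.5% to 79.7% in replicate 2. Last exons reach 89.7% and 85.8%.

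Counted over summits, internal exons of 400 nt or more took 30.5% of the member summits of replicate 1 (interval 29 to 32.1) and 38.9% of replicate 2 (36.9 to 40.9), with 23.4% of the transcript bases. Last exons took 33.5% and 39.9% with 46.0% of the bases, and first exons 9.11% and 7.36% with 5.30%. Shorter internal exons took 26.7% in replicate 1 but 13.7% in replicate 2, with 25.1% of the bases. The genes with 1 summit had it in the last exon in 73.3% and 73.6%, and in an internal exon under 400 nt in 2.65% and 2.21%.

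Peaks in the short internal exons were weaker, and those of replicate 1 were found less often in replicate 2. Of the 886 member summits there in replicate 1, 335 belonged to peaks that overlapped a replicate 2 peak by at least 1 bp (37.8%, interval 34.7 to 41.0). In internal exons of 400 nt or more it was 860 of 1012 (85.0%, 82.6 to 87.0) and in last exons 862 of 1111 (77.6%). Over all genes with a summit these shares were 29.7%, 80.2% and 71.9%. In replicate 2, the shorter list, the gap was small: 93.1% of member peaks in short internal exons, 98.7% in long ones and 98.3% in last exons overlapped a replicate 1 peak. The median fold enrichment was 3.51 in short internal exons, 5.55 in long ones and 5.64 in last exons in replicate 1, and 3.0, 4.5 and 4.79 in replicate 2.

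Over all member peaks, 66.4% of replicate 1 and 97.7% of replicate 2 overlapped a peak of the other list. The same shares were 60.6% and 95.9% over all exonic peaks of protein-coding genes, so members stood near the background. Because the rule asks for several summits in each list, sharing is not independent of it. The 1246 member peaks found in replicate 1 alone had a median fold enrichment of 3.68 against 5.85 for the 2463 shared ones, and a median width of 205 against 493 bp. Short internal exons held 50.9% of the former and 15% of the latter. GGAC lay within 50 nt of the summit on the genome, which can be intron beside a short exon, in 43.7% (41.0 to 46.5) and 51.9% (50 to 53.9).

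Where the lists overlapped, most summits lay close together. In 2414 reciprocal pairs of member peaks the median distance between summits was 26 bp, and 68.8% lay within 50 bp. Fold enrichment was higher in replicate 1 in 81.7% of the pairs, by a median of 0.42 on the log2 scale. Across pairs Pearson's r of log2 fold enrichment was 0.73 and Spearman's rho 0.72, a description over peaks that share 2 libraries. The 11018 pairs over all genes with a summit had a median distance of 26 bp, with 69.2% within 50 bp. Replicate 1 was higher in 80.2% of these, by a median of 0.432, and Pearson's r was 0.702, so members stood near the background. The strongest peak of a member gene was the same in both lists in 326 of 565 genes (57.7%). Over all genes with a summit in both lists it was 4923 of 6401 (76.9%), many of which have fewer peaks to choose from.

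The summits of members lay mainly in coding sequence. On the transcript with the longest CDS, 64.8% of the replicate 1 summits (interval 63.2 to 66.4) and 63.0% of replicate 2 (61.1 to 65.0) were in the CDS more than 200 nt from the stop codon, with 55.4% of the bases. The 200 nt to each side of the stop codon held 10.9% and 12.8% with 5.33% of the bases, and the rest of the 3′UTR 17.4% and 18.8% with 34.6%. The 5′UTR held 6.94% and 5.38% with 4.66%. In genes with 1 summit the window around the stop codon held 46.4% and 45%, the CDS 33.1% and 32.9%.

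Counted over genes instead of summits, the shares at the stop codon were closer. Of the members, 320 of 565 (56.6%, interval 52.5 to 60.7) had a summit within 200 nt of the stop codon in replicate 1 and 285 (50.4%) in replicate 2, against 48.0% and 44.7% of all genes with a summit in that list and 43.4% and 41.8% of the genes with 1 summit. A gene chosen for many summits has more chances of a summit in any window, so nothing is read from this difference. The window was the place of the strongest peak in 17.9% and 19.0% of members. The strongest peak was most often in the rest of the CDS, in 55.3% and 54.3%. By exon it was in the last exon in 47.1% and 51.4%, in a long internal exon in 37.4% and 38.4%, and in a short internal exon in 5.25% and 3.49%. ZC3H13, itself a subunit of the m6A writer complex and the only one of 16 m6A writers, erasers and readers with a summit that was a member, had summits of both kinds. Its peak at the stop codon had a fold enrichment of 11.2 and 7.63, the highest of the gene in replicate 1 but not in replicate 2, where a peak in the 465 nt exon reached 7.85. Further ZC3H13 peaks lay in internal exons of 465, 525, 556 and 1224 nt, each of them in both lists.

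Neighbouring member summits were closer than those of other genes in replicate 1 and slightly farther apart in replicate 2. Spacing depends on the number of summits per gene, which the rule set, so it is a description. The median distance along the spliced transcript from a member summit to the next was 704.5 nt in replicate 1 (interval 678 to 734, 2752 neighbours) and 976 nt in replicate 2 (938 to 1015, 1760 neighbours). The middle 50% ran from 392 to 1216 nt and from 584 to 1622 nt. Genes that were not members but had 2 or more summits in each list had median distances of 810 and 914 nt. From the first to the last summit, the median member gene spanned 68.4% and 57.3% of its transcript. Neighbours sat in the same exon in 34.0% and 40% of cases. At least 50% of the gene's summits lay in a single exon in 173 members (30.6%) in replicate 1 and in 271 (48.0%) in replicate 2, and no 2 summits shared an exon in 168 and 219. The span and these counts also depend on how many summits a list holds for a gene.

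Very close neighbours were almost always split by an exon junction, but the width of the peaks leaves room for few others. Member peaks had a median width of 347 and 381 bp. Counting summits within 200 nt on the genome as 1 left 6280 of the 6283 member peaks. The share in different exons was thus close to fixed in advance and is a description. In replicate 1, 248 neighbours (9.01%) lay under 200 nt apart on the transcript, and 245 of them were in different exons. In replicate 2 it was 60 (3.41%), all in different exons. The peaks were called on the genome, where an enriched stretch that crosses a junction lies in separate pieces. Counting summits within 200 nt along the transcript as 1, a choice made after these distances were seen, left 499 member genes and a median spacing of 791 and 1016 nt.

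The longest exons give the clearest view of spacing because no junction interrupts them. ZNF469 had 11 summits in its 13409 nt exon in each list, between 562 and 2371 nt apart in replicate 1 and between 502 and 2711 nt apart in replicate 2. Its fold enrichment stayed between 5.06 and 14.5 in replicate 1, with the highest summit at nt 733 of the transcript, and between 5.05 and 10.2 in replicate 2, with the highest at nt 805. SPEN had 9 and 5 summits in an 8176 nt exon, with median gaps of 822.5 and 1708 nt. AHNAK had median gaps of 1786 and 1042 nt in its last exon, the wider in the list with fewer summits.

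FLG was singled out after its values were seen. Filaggrin is encoded by tandem repeats in 1 exon, and this 12583 nt exon held all 12 and 10 summits. Neighbouring FLG summits were a median of 962 nt apart in replicate 1 and 968 nt in replicate 2. Compared with itself, the exon sequence matched best when shifted by 972 nt, with 71.4% of bases identical. Neighbours in the same exon were a median of 920 and 1004 nt apart over all members, so the FLG gaps were near the usual ones. A link between the FLG summits and the repeat was not tested. The largest FLG fold enrichment was 11.7 at nt 11195 in replicate 1, where replicate 2 had 7.17 at nt 11185, and 11.3 at nt 3495 in replicate 2, so the order differed between the lists.

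Such repeats, looked for after FLG was seen, were rare among members. Of 210 members whose longest exon was 4000 nt or more, 8 matched themselves at 50% or more of bases at some shift of 20 nt or more: FLG, AHNAK2, MUC5B, HRNR, ZNF721, ALMS1, AHNAK and TTN. The median of the best match over the 210 was 28.7%. In AHNAK2, a paralog of AHNAK, the best shift was 495 nt with 68.1% identical, and its median gaps were 673 and 734 nt. In AHNAK it was 384 nt with 51.8%. Reads from near-identical repeats can be placed at more than 1 copy, and how the aligner treated them is not stated. The match here is an average over the exon, from 51.0% in TTN to 71.4% in FLG, and does not show how many reads had more than 1 place. Summits in these 8 genes may therefore be uncertain in position, and those of the other members were not checked for this.

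GGAC was about as frequent at member summits as at others. Its reverse complement was more frequent than in genes with 1 summit, with overlapping intervals in replicate 2, and near its share over all exonic peaks. The windows counted here were read from the genome and, unlike those printed above, can run into introns beside short exons. Members had more summits in short internal exons than genes with 1 summit, so their windows can hold more intron. GGAC was present within 50 nt of the summit, on the gene's strand, in 49.2% of member peaks in replicate 1 (interval 47.6 to 50.8) and 52.8% in replicate 2 (50.9 to 54.8). The genes with 1 summit had 51.4% (49.2 to 53.7) and 50% (47.8 to 52.2), and all exonic peaks 49.8% and 51.9%. The reverse complement of GGAC was present in 33.2% (31.7 to 34.7) and 30.8% (29 to 32.6) of member windows and in 26.5% (24.6 to 28.5) and 27.7% (25.7 to 29.8) of those of genes with 1 summit. All exonic peaks had it in 31.4% and 29.4%. TGGAC, which includes GGAC, was present in 17.3% (16.2 to 18.6) and 19.1% (17.6 to 20.7) of member windows, and in 21.4% (19.7 to 23.3) and 21.2% (19.5 to 23.1) of the windows of genes with 1 summit. All exonic peaks had it in 18.9% and 20.1%. The windows of members were also richer in GC than those of genes with 1 summit, with a median of 60.4% and 59.4%, against 53.0% and 52.5%. All exonic peaks had a median of 59.4% and 56.4%, closer to the members. GGAC was also denser over whole member transcripts than over those of genes with 1 summit, at a median of 4.75 against 3.58 copies per kb. The mean was 34.4 against 13.6 copies per transcript.

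Over all peaks, the median fold enrichment of members was below that of the genes with 1 summit. The median fold enrichment over the input or local background that the caller used was 5.02 in replicate 1 (interval 4.91 to 5.11) and 4.35 in replicate 2 for member peaks. It was 6.76 and 5.03 for genes with 1 summit, and 5.21 and 4.72 over all exonic peaks. The genes with 1 summit had to have it in each list, which favours strong peaks. Among peaks found in both lists alone, the medians were 5.85 and 4.35 for members against 6.83 and 5.04. The strongest peak of each member gene had a median of 9.90 and 7.07, with a lowest value of 2.61 and 1.96, and the weakest peak had a median of 2.93 and 2.88. VEGFA, which encodes an angiogenic growth factor, reached 2.72 and 2.21. Within a gene, the strongest peak was a median of 3.14 times the weakest in replicate 1 and 2.39 times in replicate 2.

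**Figure D5:**
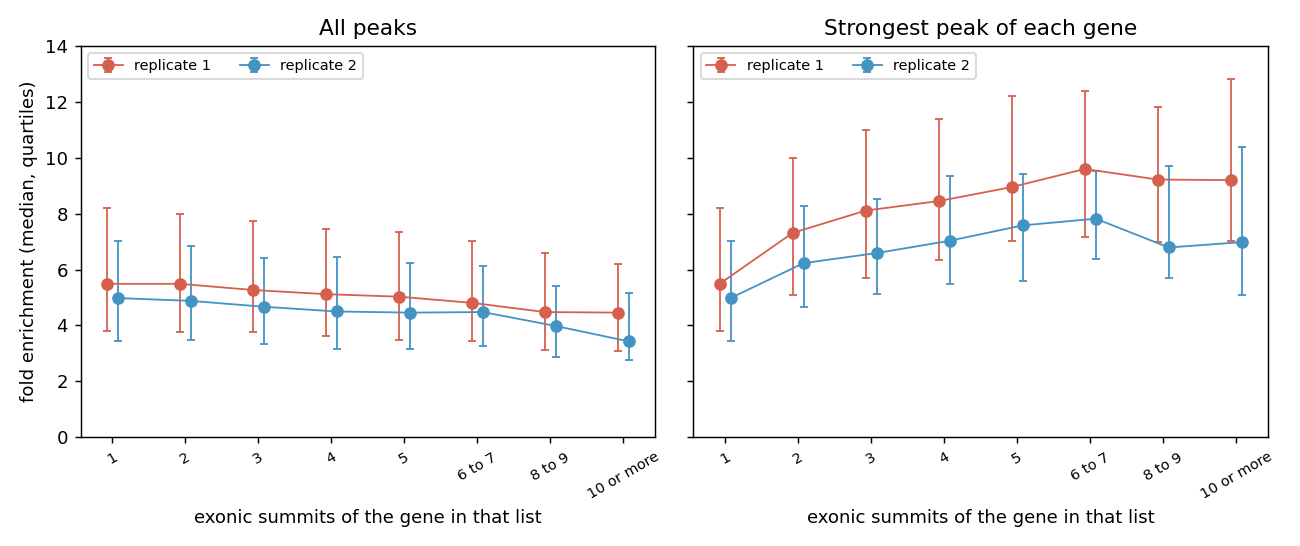
Median fold enrichment (points, with lines from the first to the third quartile) of all exonic peaks (left) and of the strongest peak of each gene (right), by the gene's number of exonic summits in that list. From genes with 1 summit to genes with 10 or more the median over all peaks runs from 5.49 to 4.46 in replicate 1 and from 4.98 to 3.43 in replicate 2, while the strongest peak runs from 5.49 to 9.20 and from 4.98 to 6.98. A maximum over more peaks is larger by construction.

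The 4 genes with the strongest peak found in both lists were MAP3K9, MID1, CHD6 and FBXW7. MAP3K9, a mixed-lineage kinase, had a peak of 26.9 in replicate 1 and 20.9 in replicate 2, in the CDS 193 nt before the stop codon, while its other peaks lay between 2.97 and 8.96. MID1, a microtubule-associated E3 ubiquitin ligase, had 24.6 and 16.6 in an exon outside the transcript with its longest CDS. CHD6, a chromodomain helicase, had 22.4 and 17.9 in its last exon, 646 nt before the stop codon. FBXW7, the substrate receptor of a ubiquitin ligase for cyclin E and MYC, had 22.2 and 17.0 in its 570 nt second exon, and its peak at the stop codon was 6.04 and 12.4. The next strongest peak of the gene was 8.96 and 5.45 in MAP3K9 and 8.38 and 7.47 in CHD6, so this site stood apart in both lists. In MID1 the next was 10.2 and 12.1 and in FBXW7 6.17 and 12.4, closer in replicate 2.

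The member genes of the shortest transcripts show a limit of the annotation. NAT9 (839 nt), DGCR6 (1117 nt), ZDHHC3 (1189 nt) and VEGFA (1286 nt) had both the shortest transcripts and the most summits per kb, between 3.89 and 4.77. Most of the summits of DGCR6, ZDHHC3 and VEGFA lay in exons of other transcripts, for example 6 of 7 and 3 of 3 for VEGFA, so the transcript with the longest CDS understates the exonic length that carried them. For NAT9, 3 of 5 and 2 of 3 lay on it. DGCR6 also has a near-identical copy, DGCR6L, and its reads may be split between them. Over all members, 10.6% and 9.71% of summits lay off that transcript, and 6.36% and 6.33% lay in exons of several genes, which an unstranded peak list cannot assign.

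By gene family, the members gathered among chromatin enzymes and giant structural genes. Over all genes with an exonic summit 6.86% were members, while 10 of 17 cytoskeletal linkers were (58.8%), among them DST, AHNAK, MACF1, PLEC and DSP. Of chromatin remodelling genes 9 of 20 were members (45%), with BPTF, the largest subunit of the NURF complex, at 11 and 6 summits. Of histone lysine methyltransferases and demethylases 15 of 41 were members (36.6%), with 116 and 80 peaks in all. Besides KMT2D and SETD1B they included KMT2A, KMT2C, SETD2, NSD1 and DOT1L. These lists have long transcripts, with median lengths of 15249, 8598 and 6139 nt, and their part beyond length was not tested.

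Intermediate shares were seen in genome maintenance genes (4 of 15), Notch and LDL receptor related genes (3 of 13), large cadherins and protocadherins (5 of 23), mucins (2 of 11), large ubiquitin ligases (3 of 19), coactivators and corepressors (5 of 35) and motors (5 of 41). SLX4, a scaffold for DNA repair nucleases, had 8 and 7 summits, 7 of them shared in each list, and reached 14.4 and 9.34. NOTCH1, the signalling receptor, had 12 and 5, of which 5 and 5 were shared. MYO18A, an unconventional myosin, had 10 and 4, none above 3.50. USP54 had 5 and 5, all shared, and was 1 of 2 member genes among 35 deubiquitinases. MUC5B, a gel-forming mucin, had 5 and 7, with 3 and 7 in its 10893 nt exon.

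C2H2 zinc finger genes were the list with the most members by number, 35, but also the list with the most genes, 416, which gives 8.41%. By the first letters of the symbol, ZNF had 25 members of 345, FAM 7 of 79 and SLC 7 of 171. Lists of genes with short transcripts had no member: 0 of 6 cytoplasmic ribosomal protein genes with a summit, 0 of 26 oxidative phosphorylation genes, 0 of 4 proteasome genes and 0 of 2 keratins. None of 13 laminins and collagens and none of 3 PI3K-related kinases was a member either, with median transcript lengths of 5692 and 8721 nt. Beside the 6.86% over all genes with a summit, these lists without a member are too small for a count of 0 to be read as a difference.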

How the data were processed

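Per the labels, OE-19 cells were UV-fixed and lysed, RNA was precipitated with an anti-m6A antibody, and libraries were made with the NEBNext Ultra Directional kit. The submitters' processing notes name fastp, HISAT2, MACS2 and hg38, whereas the study's methods name TopHat2 as aligner and MACS2 at default settings. Versions, and whether the input served as the caller's control, are not given in the sources used here.

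The authors deposited 1 MACS2 peak list per immunoprecipitated sample. Each deposited row holds an interval, a summit, a fold enrichment (a ratio), a −log10 p-value, a −log10 q-value and an integer score. The lists carry no strand and no read counts, so depth is unknown. The inputs were not analysed here.

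Each summit was assigned to exons of protein-coding genes of GENCODE 44 with Python 3.11.15, numpy 2.4.6 and pysam 0.24.0. Positions, exon classes and regions refer to the transcript with the longest CDS, counted from 1. A peak was shared if it overlapped a peak of the other list by 1 bp or more. Shares have Wilson intervals and medians order-statistic intervals. There is 1 list per sample and the rule uses the readout, so no test was made. The assignment was tested on 2000 simulated summits in 200 genes, of which 99.8% returned to their gene and position. The member genes, family lists and classes were chosen with earlier results of these data known.

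Named genes were the 12 with the most summits, the 4 with the most summits per kb, the 4 with the shortest transcripts, the first of each family list, the 4 with the strongest peak found in both lists, the 3 commonest symbol roots and the first 2 by name in each set at the threshold. FLG, the other genes with repeats and further family members given as examples were named after their values were seen. Some genes that the rule names are not reported here. The alternatives varied thresholds, peak filters, exons, windows, overlap and the list left out.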

Additional observations from a re-analysis of the deposited data

Results flagged for a closer look

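Peaks with the summit in an intron of a member gene were used in no comparison above and were seen in both lists. Replicate 1 held 364 such peaks in 191 of the 565 genes and replicate 2 held 272 in 153 genes. Of these, 41.2% (interval 36.3 to 46.3) and 72.1% (66.4 to 77.1) overlapped a peak of the other list, against 66.4% and 97.7% of the exonic member peaks. Their median fold enrichment was 5.2 and 4.69. No peak list of a control sample was analysed here, so no background level for introns can be set beside these numbers.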

How the results depend on the processing

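In all, 108 other settings, and 10 more added after the distances between summits were seen, were computed for 10 results. Values per list are given as the mean of both lists, and their change is set against the SD between the lists (n = 2). With thresholds of 4 and 2 there were 1178 member genes and 10585 peaks, with median transcript and longest exon lengths of 5562 and 2838 nt and 14.7% of summits at the stop codon. With 6 and 4 these were 254, 3479, 7868 nt, 3593 nt and 10.1%. Keeping peaks of fold enrichment 3 or more left 358 genes and 3810 peaks, with lengths of 7372 and 3764 nt and a median enrichment of 5.53. Exons of the transcript with the longest CDS alone gave lengths of 7364 and 3660 nt. Choosing on 1 list, without replicate 2 or without replicate 1, gave 734 to 1315 genes, transcript lengths of 5488 to 6030 nt, longest exons of 2832 to 2956 nt, 27.3% to 32.9% of summits in long internal exons and 11.9% to 15.6% at the stop codon. An exon length of 200 or 800 nt in place of 400 gave 43.6% and 22.2% in place of 34.7%. A stop codon window of 100 or 400 nt gave 6.87% and 18.8%, and the peak midpoint 10.4%, in place of 11.8%. GGAC was found in 29.8% and 73.7% with windows of 25 and 100 nt and in 46.0% at the midpoint, against 51.0%. The strongest peak per gene had a median of 8.48 against 4.69. The cause of these changes was not tested beyond what each setting changes by construction. The other 75 settings and the 10 added ones moved their result by less than the limit set for it. That limit was the spread or interval, or a ratio for the numbers of genes and peaks. The ratio was wide: 440 to 734 member genes counted as unmoved beside 565. For sharing between lists the spread was 22.1 points, too wide to show whether a setting matters. Asking for an overlap of 50% of both peaks gave 67.9% shared, and summits within 100 bp 68.4%, in place of 82.0%. In replicate 2 these were 79.5% and 80.3% in place of 97.7%, so sharing depends on the overlap asked for. Sharing between lists has no value with a list left out. No paired analysis was possible because the inputs that share replicate numbers with the immunoprecipitated samples were not analysed here and no result comes from a test.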

Other observations

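MUC12, a membrane mucin and no member, had 9 exonic summits in replicate 2, with fold enrichment between 3.51 and 6.84, and 0 in replicate 1. It was the only gene with 5 or more exonic summits in replicate 2 and none in replicate 1. Its longest exon, of 14935 nt, is internal. Repeats within exons were looked for in members alone, so whether this exon holds any was not checked here.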
